A study of Mus musculus with 22 samples.

Results

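Rmrp and Snora16a are 2 small non-coding RNA genes whose products act in ribosome production, and they are described here in kidney RNA of the mouse. They were chosen by name with their measured read shares in these libraries already known, so their levels are given as a description and nothing is supported by a test of them. They are 2 of 39101 genes in the deposited table, of which 739 (1.89%) held 1 read or more. The study treated male C57BL/6 mice from the NIA aging rodent colony with SLU-PP-332, an agonist of the estrogen-related receptors (orphan nuclear receptors of energy metabolism), or with vehicle. The labels describe 6 kidneys of 4-month-old mice on vehicle, 6 of 4-month-old mice on the agonist, 6 of 21-month-old mice on vehicle and 4 of 21-month-old mice on the agonist. Treatment was intraperitoneal for 8 weeks, with a daily agonist dose of 25 mg/kg, or with 3% DMSO as the vehicle. Expression was read with the Ion AmpliSeq panel, which copies a short segment of each transcript with its own primer pair.

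The 23 columns of values carry an Ion barcode only, 0109 to 0131, and the descriptions of all 22 samples name barcode 0109. The sample titles are numbered 1 to 23 without 8. Groups could be read off only by laying barcodes and title numbers side by side in order. Such an order would be an inference and does not establish which library came from which mouse. No group was therefore assigned and no effect of age or agonist is given. With 23 libraries for 22 described samples, not every library can have a described sample of its own. Every value below belongs to 1 barcoded library.

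Rmrp is the RNA subunit of RNase MRP, a ribonucleoprotein enzyme related to RNase P. RNase MRP cuts the ribosomal RNA precursor in the nucleolus and shares most of its proteins with RNase P. Its RNA is transcribed by RNA polymerase III, and mutations of the human gene cause cartilage-hair hypoplasia. Snora16a belongs to the H/ACA class of small nucleolar RNAs. Such RNAs fold into hairpins, carry an ACA box near their 3′ end and guide the conversion of uridine to pseudouridine, mostly in ribosomal RNA. They are usually cut out of the introns of host genes.

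The sequences of both RNAs are shown as the annotated forms of the genes, and because that of Snora16a holds the box of its class. The exact reference that the reads were assigned to was not used here. They are from GENCODE M21 on GRCm38, the assembly that is also called mm10. Rmrp lies on the minus strand of chromosome 4, from 43492783 to 43493063 in the longer GENCODE model of 281 bases. Capitals mark the 5 bases at either end that the shorter model of 271 bases lacks. In the RefSeq table for GRCm38.p6 the gene runs from 43492785 to 43493059 and has 275 bases. Its G and C content was 63.7% in the longer model.
Rmrp: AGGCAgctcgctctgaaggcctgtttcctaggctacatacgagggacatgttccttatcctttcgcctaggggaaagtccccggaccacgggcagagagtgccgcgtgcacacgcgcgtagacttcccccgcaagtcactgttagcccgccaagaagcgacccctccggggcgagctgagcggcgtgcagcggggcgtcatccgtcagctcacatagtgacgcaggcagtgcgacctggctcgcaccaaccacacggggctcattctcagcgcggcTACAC

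Snora16a lies on the plus strand of chromosome 4, from 132309465 to 132309600, and has 136 bases with 47.1% G and C. Capitals mark the ACA box, the letters ACA exactly 3 bases before the 3′ end. The same letters at this place, read on the transcript's own strand, were found in 35 of 42 GENCODE transcripts whose gene name starts with Snora (83.3%) and in 0 of 98 named Snord. Snora23, another H/ACA RNA with reads in every library, is shown beside it. It lies on chromosome 7, 110046364 to 110046547, on the plus strand.
Snora16a: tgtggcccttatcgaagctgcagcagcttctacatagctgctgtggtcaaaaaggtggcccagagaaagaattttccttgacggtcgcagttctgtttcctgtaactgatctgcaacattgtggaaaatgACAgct
Snora23: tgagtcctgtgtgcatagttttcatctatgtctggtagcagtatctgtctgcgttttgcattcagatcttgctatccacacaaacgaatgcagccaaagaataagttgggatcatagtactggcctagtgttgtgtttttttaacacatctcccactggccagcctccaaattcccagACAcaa

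Both genes are on chromosome 4, 88.8 Mb apart. Snora16a sits within Snhg12, a small nucleolar RNA host gene (132308678 to 132311024 in RefSeq). In 6 of the 10 GENCODE transcripts of Snhg12 it falls in an intron, and in 2 it falls inside an exon. The longer Rmrp model has 164 bases within the genomic span of 1 of the 6 GENCODE transcripts of Ccdc107, a coiled-coil protein gene on the opposite strand. The span includes introns, and whether these bases fall in an exon of Ccdc107 was not checked. The RefSeq model of Ccdc107 starts beyond Rmrp, at 43493340. Ccdc107 was listed at 0 in all libraries. The sources used here do not say whether the counting used strand, so reads from the overlapping stretch cannot be assigned to a strand.

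Each gene has 1 row in the table, a curated RefSeq transcript. The deposited unit is FPKM by its name, but most values were whole multiples of 1 step per library. Transcripts at exactly 1 step ranged in length from a median over libraries of 126 bases for the shortest to 6877 bases for the longest, so the step did not follow transcript length. That step is taken as 1 read, which is an inference from the values. In library 0109, for example, Rmrp was deposited as 2191304.35 and the step was 17391.3, which gives 126 reads. All 23 values of Rmrp and all 23 of Snora16a were whole within 0.01 read. A library held a median of 1788 such inferred reads (range 1187 to 4131), a small number that limits every share below. Whether the table holds all reads of a library was not established, and every interval and test below rests on the inferred reads. Pck1, a gluconeogenic enzyme, took between 7.75% and 38.1% of the inferred reads. Shares are therefore given as a percentage of the reads other than Pck1, with 95% Wilson intervals that cover counting error only. Of the 7 listed markers of the proximal tubule, Pck1 and Slc34a1 held many reads and Slc5a2 held 1. Lrp2, Cubn, Slc22a6 and Aqp1 of the same list were at 0. Synpo, a podocyte marker, held 23 reads. Umod, Aqp2 and Slc12a1, abundant in the kidney, were listed at 0, as were Alb and Apoa1 of liver. A 0 in this table is thus not read as absence.

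Rmrp held 4527 reads over all libraries and between 124 and 442 in a single one. It was the gene with the most reads in 2 libraries, 0115 and 0122, the second in 10 and the third in 11. From 0109 to 0116 its share ran 11.4%, 11.8%, 9.69%, 11.01%, 10.6%, 11.4%, 15.6% and 13.4% by barcode. From 0117 to 0124 the shares were 11.97%, 11.9%, 15.9%, 12.7%, 11.9%, 12.2%, 12.2% and 12.03%. Libraries 0125 to 0131 had shares of 16.9%, 15.2%, 13.3%, 12.7%, 12.9%, 11.9% and 12.3% in turn. The median was 12.2%, and the highest share was 1.75 times the lowest.

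The highest shares of Rmrp were in libraries 0125, 0119, 0115 and 0126, and the lowest in 0111 and 0113. The interval of library 0125 ran from 15.6% to 18.4%, and that of library 0111, the lowest, from 8.37% to 11.2%. With the reads of all libraries pooled the share was 12.9%. The intervals of the 4 highest libraries lay wholly above it, those of the 2 lowest wholly below, and the other 17 held it. In all 22 pairs of neighbours in the order the intervals overlapped. Neighbours are the nearest values by construction, and no difference between them was tested.

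Snora16a held 1107 reads in total, with 20 in library 0112 as the fewest and 124 in library 0126 as the most. Its rank by reads ran from 4, in 4 libraries, to 11, in 1 library. From 0109 to 0116 its share was 2.62%, 2.61%, 1.59%, 1.78%, 2.40%, 2.98%, 3.14% and 2.45% in turn. From 0117 to 0124 it was 2.81%, 5.41%, 3.85%, 4.04%, 2.73%, 2.74%, 3.79% and 3.03%. From 0125 to 0131 it was 3.11%, 4.85%, 2.65%, 2.17%, 4.55%, 2.94% and 3.55%. The median was 2.94%, and the highest share was 3.39 times the lowest.

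The snoRNA thus spanned a wider relative range than Rmrp, on fewer reads. Its highest share, in library 0118, rested on 62 reads (interval 4.24% to 6.87%), and its lowest, in library 0111, on 27 reads (interval 1.10% to 2.31%). Without library 0118 the highest share was 4.85%, in library 0126. The pooled share was 3.16%. Intervals lay wholly above it in libraries 0118, 0126 and 0129 and wholly below it in libraries 0111, 0112 and 0128. As for Rmrp, the intervals of all 22 neighbouring pairs overlapped.

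**Figure D1:**
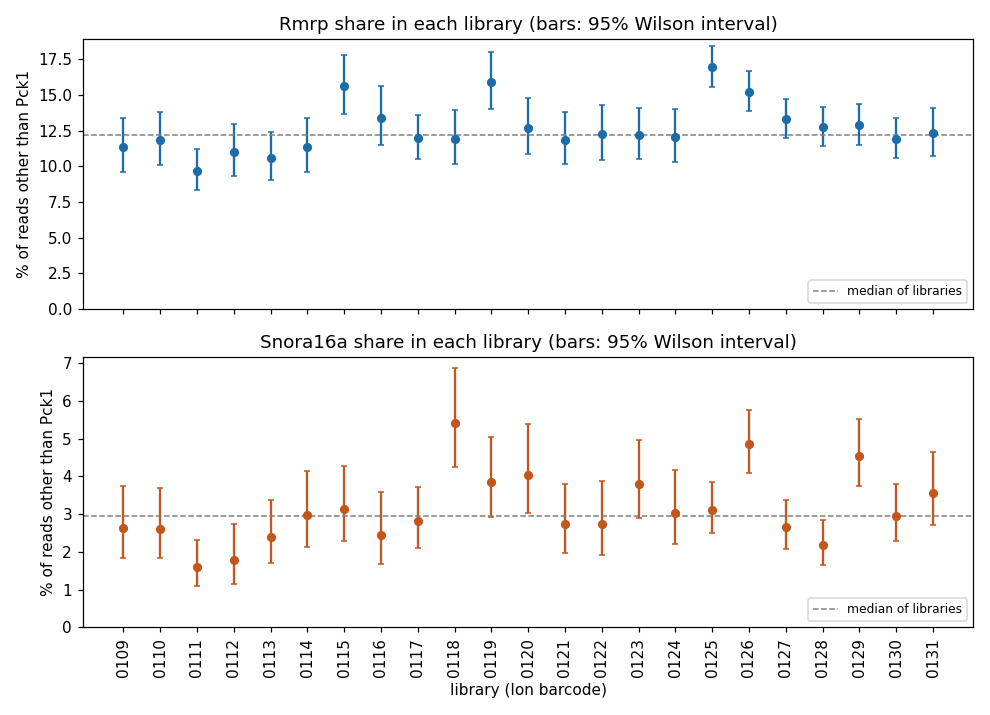
Share of Rmrp (upper panel) and Snora16a (lower panel) as a percentage of the reads other than Pck1, in each of the 23 libraries named by barcode. Points are single libraries, bars are 95% Wilson intervals and dashed lines are the medians of 12.2% and 2.94%; Rmrp stands above 15% in libraries 0115, 0119, 0125 and 0126, and Snora16a is highest in 0118, 0126 and 0129.

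The ratio of the 2 RNAs does not depend on what else a library holds. It had a median of 4.34 Rmrp reads per Snora16a read. The lowest ratio was 2.21 in library 0118 (95% exact interval 1.63 to 3.03) and the highest was 6.20 in library 0112 (interval 3.81 to 10.4). Without library 0118 the lowest was 2.83, in library 0129. The pooled ratio was 4.09, with intervals wholly above it in libraries 0125 and 0128 and wholly below it in 0118, 0126 and 0129. As amounts of reads from separate amplicons, these ratios give no molar ratio of the RNAs.

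Libraries with a high share of one RNA were not always high in the other. Library 0126 was high in both, at 15.2% and 4.85%, and library 0111 was lowest in both. Library 0125, the highest in Rmrp, had a Snora16a share of 3.11%, which is near the median. Library 0118, the highest in Snora16a, had an Rmrp share of 11.9%, just under the median.

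**Figure D2:**
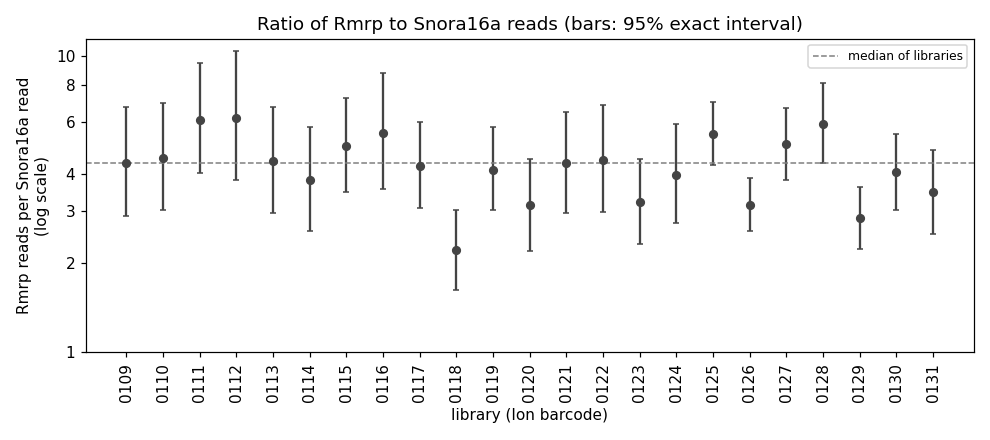
Rmrp reads divided by Snora16a reads in each of the 23 libraries, on a log axis, with 95% exact intervals and the median of 4.34 as a dashed line. Library 0118 is lowest at 2.21, and libraries 0111 and 0112 are highest at 6.07 and 6.20 with intervals of 4.03 to 9.50 and 3.81 to 10.4.

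Over the 23 libraries the 2 shares had a Spearman rho of 0.52 and a Pearson r of 0.40, given as a description. With 0125 and 0119 left out, whose Rmrp shares are most distant from the median, these were 0.47 and 0.45. Both shares are of the same total, and the libraries come from an unknown mixture of groups. Reads per library had a rho of 0.20 with the Rmrp share and of 0.02 with the Snora16a share. The Pck1 share of all reads had a rho of -0.44 with the Rmrp share and of -0.15 with the Snora16a share. The part of Pck1 or depth in either pattern was not tested.

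**Figure D3:**
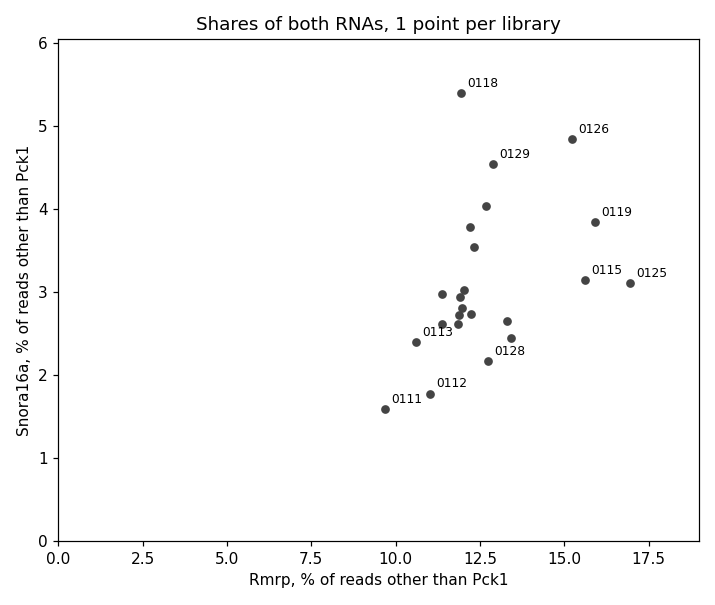
Snora16a share against Rmrp share, both as a percentage of the reads other than Pck1, with 1 point for each of the 23 libraries and barcodes beside those whose interval for either RNA leaves out the pooled share. Library 0111 is lowest on both axes, 0126 is high on both, and 0118 and 0125 are high on 1 axis only.

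The 3 genes most like each RNA in their pattern were taken by Spearman rho over the 23 libraries, among the 52 other genes whose reads averaged 5 or more over the libraries. For Rmrp these were Snora16a (0.52), the histone gene H2ac24 (0.44) and Gm26489 (0.38), whose row is named as a small Cajal body RNA. For Snora16a they were Rmrp (0.52), Gm26489 (0.49) and Scarna13 (0.45), a guide RNA of Cajal bodies, where spliceosomal RNAs are modified. By Pearson r the order within these sets differed. With Rmrp, H2ac24 had 0.51 and Gm26489 0.40, against 0.40 for Snora16a. With Snora16a, Scarna13 had 0.45 and Gm26489 0.41, against 0.40 for Rmrp. Each RNA was thus the first gene for the other by rank but not by Pearson r. Since both were chosen with their shares known, nothing is read from this. Gm26489 had a median share of 1.55% (range 1.08% to 2.35%) and Scarna13 one of 0.661% (range 0.177% to 1.16%). Neither differed between libraries at an adjusted p under 0.05 in the chi-square described below (0.969 and 1.38 per degree of freedom). Whether their rho with either RNA goes beyond counting error was not tested. H2ac24 is one of several near-identical histone genes, among which reads can be split.

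At the other end, Eci3, an enoyl-CoA isomerase, was least like Rmrp, with a rho of -0.67. Its share was lowest, 0.826%, in library 0115, where Rmrp was 15.6%. It was highest, 5.80%, in library 0113, where Rmrp was 10.6%. Tgoln2, a protein of the trans-Golgi network, was least like Snora16a (rho -0.60), on a median share of only 0.309%. In the chi-square described below, Tgoln2 had 1.02 per degree of freedom and did not differ between libraries at an adjusted p under 0.05. All these shares are parts of 1 total per library, and what that adds to a negative rho was not tested.

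A chi-square over the 23 libraries set the spread of each gene against counting error, on 22 degrees of freedom. Of 53 genes whose reads averaged 5 or more, 22 (41.5%) differed between libraries at an adjusted p under 0.05 (Benjamini-Hochberg). Libraries from different mice can differ by more than counting error, and the groups behind these are not known. Rmrp and Snora16a were among the 53 genes, each tested on its own. Since they were chosen with their spread known, nothing is read from their place among them. As a description, Rmrp had 4.91 per degree of freedom and Snora16a 4.64, the eighth and ninth highest values. The other 51 genes had a median of 1.49. Without library 0125 the value of Rmrp fell to 3.26, and without library 0126 that of Snora16a fell to 3.79.

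This measure grows with the number of reads, so genes with about as many are given beside each RNA. Slc34a1, a phosphate transporter of the proximal tubule with 4169 reads, had 8.24 per degree of freedom, above Rmrp with 4527 reads. Near Snora16a with its 1107 reads, Eci3 with 1056 reads had 8.86 and Rpl32, a ribosomal protein with 1171 reads, had 2.17. G3bp1, a stress granule protein with 972 reads, had 2.45, and Psmb3, a proteasome subunit with 942 reads, had 0.922. Snora16a thus lay below 1 of these 4 genes and above 3. The small RNAs with fewer reads lay near 1: Gm26489 had 0.969, Snord15a 1.09, Snora23 1.22 and Scarna13 1.38. The same relative spread on fewer reads would give lower values. Nearest to Gm26489 in reads, Mgst1 with 579 had 8.74 and Sacm1l with 493 had 1.75. Whether the small RNAs with fewer reads were steadier than Snora16a was not tested.

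**Figure D4:**
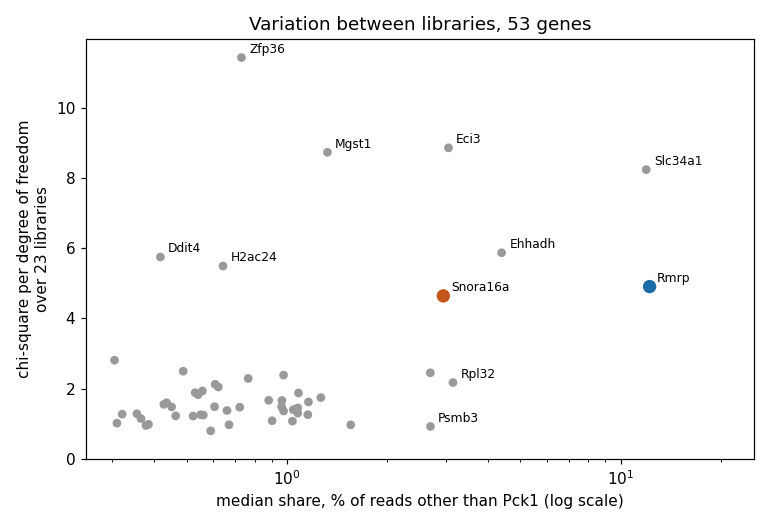
Chi-square per degree of freedom over the 23 libraries against the median share of reads other than Pck1 (log axis), with 1 point for each of the 53 genes tested. Rmrp (blue) is at 4.91 and Snora16a (orange) at 4.64, below 7 other genes and above 44.

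Among curated non-coding transcripts the 2 RNAs held most of the reads. Together they took a median of 65.3% of those reads (range 58.0% in library 0122 to 72.2% in library 0126). Rmrp alone took a median of 53.1% (range 45.7% to 58.7%) and Snora16a 11.8% (range 8.64% to 20.7%). Library 0118 had both the lowest Rmrp part and the highest Snora16a part of this pool.

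Other guide RNAs held fewer reads. Gm26489 came next, with 572 reads and some in all 23 libraries. Of 139 further genes named Snora, Snord or Scarna, 8 held 1 read or more. Snord15a, a guide RNA of the C/D class, held 324 reads, Scarna13 held 249 and Snora23 held 179, each with reads in all 23 libraries. Snord7 held 12 and Snora62 held 8. The 28S ribosomal RNA row Rn28s1 held 361 reads and the 18S row Rn18s 146. Rpph1, the RNA of RNase P and the closest relative of Rmrp, held 9 reads in 5 libraries. Terc, the telomerase RNA, which also has an H/ACA domain, held 2, and the Y RNA gene Rny1 held 1.

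**Figure D5:**
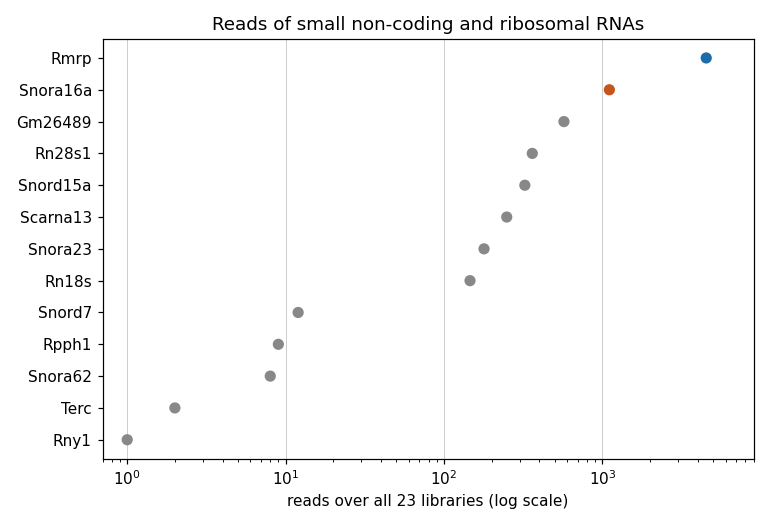
Total reads over the 23 libraries (log axis) of Rmrp, Snora16a and 11 other small non-coding or ribosomal RNAs with reads, shown after their values had been seen. Rmrp has 4527 reads and Snora16a 1107, followed by Gm26489 with 572.

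The proteins that bind the 2 RNAs were nearly all listed at 0. Of 11 proteins of RNase MRP and RNase P, Rpp25l alone held reads, with 57 over 20 libraries and a median share of 0.155% (range 0% to 0.368%). Rpp25l is a paralogue of Rpp25, an RNA-binding subunit. The 9 proteins and assembly factors of H/ACA particles, among them the pseudouridine synthase Dkc1, were at 0, as were the 4 core proteins of C/D particles. None of the 25 ribosome biogenesis factors on the list held a read, nucleolin (Ncl) and the RNA polymerase I subunit Polr1a included.

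Snhg12, the host gene of Snora16a, was listed at 0 in every library, as were Snora44, Snora61 and Snord99, the other guide RNAs on its list, and the neighbour Trnau1ap. A list of small nucleolar RNA host genes held only Gas5 and genes named Snhg, and all 18 of these in the table were at 0. Reads fell on 10 of the 87 genes of cytosolic ribosomal proteins. Rpl32 had 1171 reads and a median share of 3.14%, and Rpl36al had 160 reads and one of 0.428%. For a gene with a primer pair and all its reads kept, 0 reads over all libraries would set an upper limit on its share. That limit is 0.00855% of the reads other than Pck1, from 3 counts of 35082. Which genes have a primer pair in the panel was not established, so these zeros say nothing of the levels of those genes in the kidney.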

How the data were processed

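Kidney RNA was made into libraries with the Ion AmpliSeq mouse transcriptome panel, read on an Ion Proton and mapped to the panel's mm10 transcriptome, per the labels' protocols. The sources used here name no counting tool, scaling or filter. The unit that the authors deposited, in 121562 rows of transcripts, is FPKM by the name of the table. None of its 23 columns of values matched a sample, so each is a library of no known group.

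Each value was divided by the most frequent value above 0 of its library and taken as reads. A median of 66.1% of values above 0 were whole within 0.01, and these held 95.0% of the reads. Rows were summed by gene, with symbols from RefSeq GRCm38.p6 (117213 rows matched). Columns summed to 27222878 to 28113676. The chi-square step (scipy 1.17.1, genes with a mean of at least 5 reads, Pck1 left out) was also run on simulated libraries. These held counting error and set changes of chosen genes only. That run thus cannot show how the step behaves with other variation between mice. FPKM are not counts. The test compares libraries on inferred reads, without molecular identifiers, and not conditions. Genes were named by a fixed rule: the members, the 3 genes most like and the 1 least like each, and listed genes with 20 reads or more. Genes with fewer reads, the small RNAs and the genes of like read number were named after their values were seen. The members and lists were chosen with earlier results of these data known.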

Additional observations from a re-analysis of the deposited data

How the results depend on the processing

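The median Rmrp share of 12.2% became 9.44% of all reads, 14.6% without Slc34a1 and Ehhadh in the total and 19.4% of the reads of curated transcripts. The median Snora16a share of 2.94% became 2.14% of all reads and 4.55% of those of curated transcripts. These moves follow from the number of reads in the denominator. The ratio of the 2 RNAs, 4.34, has no such total. With 1 library left out the medians lay between 12.1% and 12.2% for Rmrp, between 2.88% and 2.96% for Snora16a and between 4.30 and 4.35 for the ratio. The rho between the 2 shares, 0.52, lay between 0.41 and 0.48 with other totals or rows, chosen after seeing the data, and between 0.45 and 0.60 with 1 library left out. The count of 22 genes that differed between libraries became 39 of 738 genes with only 1 read required in total, where many more genes were tested, 27 of 53 with all reads in the denominator, 18 of 31 with a mean of 10 reads, 16 of 37 with curated transcripts, and 20 to 25 with 1 library left out. No paired analysis was possible because no column carries a sample's number. At these numbers of inferred reads an Rmrp share has an interval of about 3 to 4 percentage points.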

Other observations

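The Rmrp shares left a gap between 13.4% and 15.2% of the reads other than Pck1, the widest step in their order at 1.82 percentage points. Above it lay library 0126 at 15.2%, library 0115 at 15.6%, library 0119 at 15.9% and library 0125 at 16.9%. Below it, in ascending order, the other 19 had 9.69% (0111), 10.6% (0113), 11.01% (0112), 11.4% (0114 and 0109), 11.8% (0110), 11.9% (0121, 0130 and 0118), 11.97% (0117), 12.03% (0124), 12.2% (0123 and 0122), 12.3% (0131), 12.7% (0120 and 0128), 12.9% (0129), 13.3% (0127) and 13.4% (0116). The intervals of 0116 and 0126 overlap, and whether the gap is wider than counting error was not tested. The 4 libraries above it differed in their Pck1 share of all reads, at 38.1%, 12.4%, 29.2% and 16.4% in the order given. Their Snora16a shares were 4.85%, 3.14%, 3.85% and 3.11%. The widest step among the Snora16a shares was 0.56 percentage points, between 4.85% in library 0126 and 5.41% in library 0118. These libraries were set side by side by their values alone and are no group of the study.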
